A study of Mus musculus with 5 samples.

Results

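The 6 genes described here encode inhibitors of cyclin-dependent kinases other than the products of the Cdkn2a and Cdkn2b locus. They are Cdkn1a, Cdkn1b and Cdkn1c of the CIP/KIP family, Cdkn2c and Cdkn2d of the INK4 family, and Cdkn3, a phosphatase gene. They were chosen by name, and the data on each were the H3K27me3 peaks that overlapped its gene body or the 5 kb flanking it at either end, by coordinates of the GENCODE M21 annotation on GRCm38. All 6 were found among 21938 protein-coding genes. No peak lay in any of the 6 windows, in any of the 3 peak lists.

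The study concerned Ezh2 in tooth root development, and H3K27me3 was profiled by ChIP-seq to find where the product of Ezh2 lies. Molars of wildtype C57BL/6 mice were taken at postnatal day 3, and their mesenchyme was used once the epithelium was off. The 5 libraries were 2 of H3K27me3, 2 of input (sheared chromatin that was not immunoprecipitated) and 1 of nonspecific IgG, all from untreated wildtype tissue, so there was no genotype or treatment to compare. The sources do not state which animals or pools of animals each H3K27me3 library was made from, so SD here measures how far 2 libraries lay apart, which may be technical.

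H3K27me3, histone H3 trimethylated at lysine 27, is written by the Ezh2 subunit of Polycomb repressive complex 2 and is known to lie in broad domains over repressed developmental genes. CIP/KIP proteins bind cyclin and kinase together and inhibit the kinases of G1 and S phase, whereas INK4 proteins bind CDK4 and CDK6 and keep D-type cyclins from them. In both cases the retinoblastoma protein stays active and entry into S phase is held back. The Cdkn2a and Cdkn2b locus is a known target of Polycomb repression, and its genes serve below as the comparison from the same functional group.

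After duplicate removal the libraries held between 23688420 and 51681224 tags. Replicate 1 was shallower than replicate 2, with 30369351 against 49947919 H3K27me3 tags, and its tags were shorter, 49 bp against 74 bp. The authors listed 22757 peaks for replicate 1 against input, 24881 for the same library against IgG, and 33379 for replicate 2 against its input. Peaks were weak, with a median pileup of 3.19 in replicate 1 against input, 3.40 when called against IgG and 6.16 in replicate 2. They were also short, with median lengths of 119, 120 and 181 bp in that order, so a single peak does not outline a broad domain. The lowest mean pileup of a list, which is the mean number of overlapping tags in a peak after scaling, corresponded to 4 tags in both replicate 1 lists and to 6 tags in replicate 2, and between 35.1% and 44.5% of a list sat at that lowest value. A list holds only regions past the peak caller's cutoff, so signal below it is not seen here, and the absence of a peak is not a measurement of 0. RNA was not measured in these libraries, so the labelled tissue could not be checked by expression. A peak in both replicates, at any place in the window and not always the same one, was found at 6 of 12 dental mesenchyme marker genes, 2 of 9 dental epithelium marker genes and 2 of 7 endothelial and blood marker genes, where 15.7% of all protein-coding genes had one. Within 1 kb of the 5′ end the counts were 1, 0 and 0, where 1.04% of all genes had one. Window lengths were not matched, and the counts are a description and no check of the tissue.

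The sequence before the 5′ end of 2 members and of Cdkn2a is given first, to show a CpG-poor and a CpG-rich member without a peak beside Cdkn2a, which had peaks in its window. From this Cdkn2a 5′ end the closest peak lay 3282 bp away in replicate 1 against input, 1161 bp against IgG and 216 bp in replicate 2. Each line holds the 250 bases before the annotated 5′ end of the gene, on the strand of the gene and on GRCm38, with CpG dinucleotides in capitals. These lie at chr17:29090726-29090975 for Cdkn1a (plus strand), chr6:134920151-134920400 for Cdkn1b (plus strand) and chr4:89294654-89294903 for Cdkn2a (minus strand).

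Cdkn1a: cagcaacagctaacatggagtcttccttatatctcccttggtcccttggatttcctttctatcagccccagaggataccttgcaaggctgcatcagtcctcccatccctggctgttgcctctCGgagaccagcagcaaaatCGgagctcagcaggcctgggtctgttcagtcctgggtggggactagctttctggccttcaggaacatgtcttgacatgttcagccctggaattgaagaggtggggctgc
Cdkn1b: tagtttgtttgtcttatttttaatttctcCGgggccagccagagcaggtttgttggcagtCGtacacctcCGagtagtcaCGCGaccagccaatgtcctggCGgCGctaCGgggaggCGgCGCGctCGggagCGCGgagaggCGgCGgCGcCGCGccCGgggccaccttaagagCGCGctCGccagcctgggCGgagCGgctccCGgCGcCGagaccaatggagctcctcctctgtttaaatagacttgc
Cdkn2a: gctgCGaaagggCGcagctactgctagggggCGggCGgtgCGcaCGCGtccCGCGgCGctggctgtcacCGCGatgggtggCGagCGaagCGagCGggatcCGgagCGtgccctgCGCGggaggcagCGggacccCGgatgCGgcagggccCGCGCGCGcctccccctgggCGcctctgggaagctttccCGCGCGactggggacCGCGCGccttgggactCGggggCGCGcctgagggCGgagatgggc

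These stretches held 2 CpG in Cdkn1a, 28 in Cdkn1b and 38 in Cdkn2a. The same stretch held 4 CpG in Cdkn2c, 16 in Cdkn2d and 18 in Cdkn3, and 11 in the comparator Cdkn2b. Ratios over a wider promoter window are given for all 6 members further on, where Cdkn1c had the highest.

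The next sequences are the closest peaks to Cdkn1b, Cdkn1c and Cdkn2d, the members with a peak nearest to the gene, given on the plus strand with CpG in capitals. They lie at chr6:134934019-134934230 (replicate 2, near Cdkn1b), chr7:143443181-143443287 (replicate 1 against IgG, near Cdkn1c), chr7:143445086-143445355 (replicate 2, near Cdkn1c) and chr9:21312782-21312827 (replicate 1 against input and against IgG, near Cdkn2d).

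Near Cdkn1b: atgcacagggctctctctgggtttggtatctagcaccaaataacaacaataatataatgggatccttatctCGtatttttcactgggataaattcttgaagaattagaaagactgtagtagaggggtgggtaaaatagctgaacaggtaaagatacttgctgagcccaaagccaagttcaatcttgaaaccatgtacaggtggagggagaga
Near Cdkn1c, IgG list: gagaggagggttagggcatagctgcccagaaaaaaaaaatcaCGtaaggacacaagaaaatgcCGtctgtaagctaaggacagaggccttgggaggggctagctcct
Near Cdkn1c, replicate 2: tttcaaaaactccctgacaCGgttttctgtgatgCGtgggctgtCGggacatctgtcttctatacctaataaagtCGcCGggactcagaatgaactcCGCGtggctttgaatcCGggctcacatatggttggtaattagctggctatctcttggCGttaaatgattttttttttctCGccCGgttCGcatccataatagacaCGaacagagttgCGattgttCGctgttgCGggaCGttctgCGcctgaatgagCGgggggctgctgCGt
Near Cdkn2d: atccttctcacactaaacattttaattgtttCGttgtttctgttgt

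The replicate 2 peak near Cdkn1c held 20 CpG in 270 bases, an observed to expected ratio of 1.19. The IgG-called peak near Cdkn1c held 2 CpG in 107 bases, and the peak near Cdkn1b held 1 in 212 bases.

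Of the 6 members, 0 had a peak in the gene body and its 5 kb flanks in replicate 1 against input, where 25.0% of all protein-coding genes did. It was also 0 of 6 in replicate 1 against IgG, with 25.9% of all genes, and 0 of 6 in replicate 2, with 35.7% of all genes. A peak in both replicates against input was present at 0 of 6 members and at 15.7% of all genes. A peak in at least 1 of the 3 lists was present at 0 of 6 members and at 49.0% of all genes. The covered share of the window was therefore 0% in each replicate for each of the 6 genes. No test was made, since genes measured in the same libraries are not replicates.

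The windows of the members were short, from 12.7 kb for Cdkn1c to 21.1 kb for Cdkn3, compared with a median of 27.4 kb over all protein-coding genes. Among the 6211 genes with a window in that range, 14.6% had a peak in replicate 1 against input, 16.0% against IgG, 18.5% in replicate 2, 6.57% in both replicates and 30.3% in at least 1 list. At that size most genes were without a peak, as the members were. The 6 windows together spanned 98.0 kb. The genome as a whole held 8.6 peaks per Mb when replicate 1 was called against input, 9.4 when it was called against IgG, and 12.6 for replicate 2. At these means a span of 98.0 kb would hold 0.84, 0.92 and 1.24 peaks. The counts of 0 lie close to these values, and nothing particular to the 6 genes can be read from them.

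At the promoter, defined as 1 kb on each side of the annotated 5′ end, 0 of 6 members had a peak in any list. At this 5′ end the comparators differed little from them. Cdkn2a had a promoter peak in replicate 2 only, and Cdkn2b had none in any list. Promoter peaks were rare in general, at 3.87% of all protein-coding genes in replicate 1 against input, 4.52% against IgG, 4.16% in replicate 2, 1.04% in both replicates and 8.56% in at least 1 list. Several members have more than 1 annotated start, and no start of any member had a peak within 1 kb either. The nearest approach was 13506 bp, from the second start of Cdkn1b to a replicate 2 peak.

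**Figure D1:**
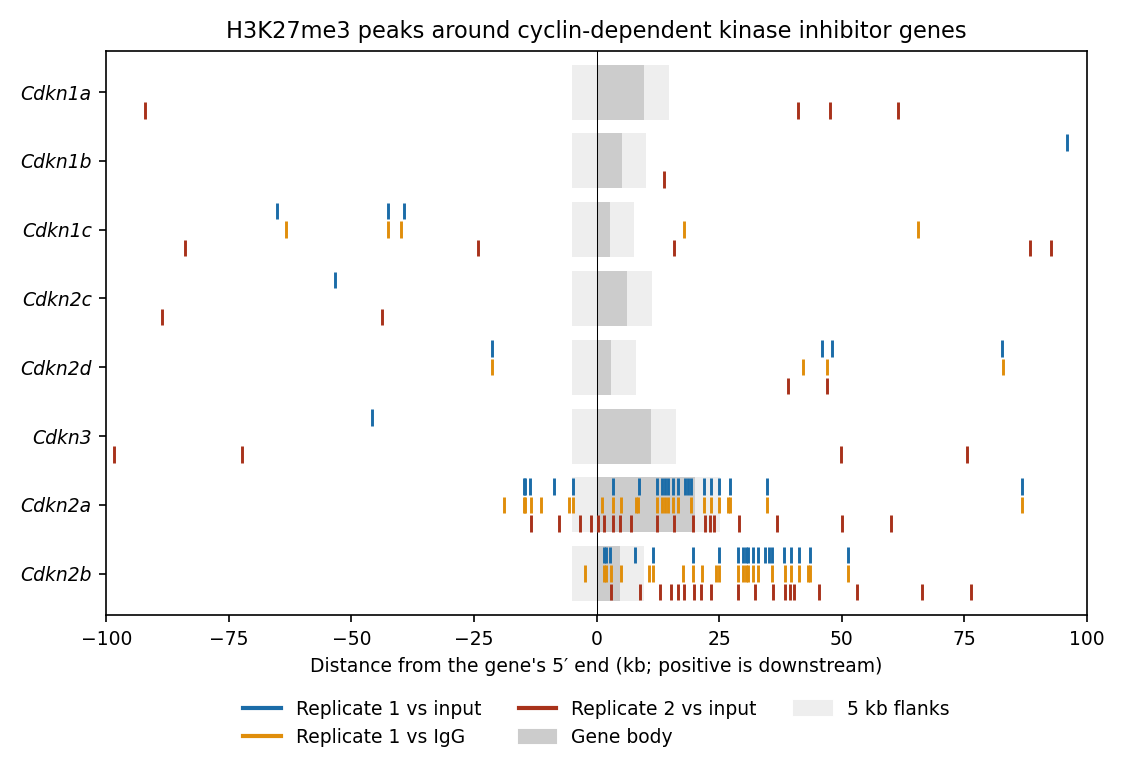
Peaks within 100 kb of the 5′ end of each gene, drawn at the centre of the peak on the strand of the gene (x axis, distance in kb), with 1 row of ticks for each of the 3 lists; dark grey is the gene body and light grey its 5 kb flanks. The grey windows of the 6 members hold no tick, whereas that of Cdkn2a holds 13 or more in every list and that of Cdkn2b holds 2 to 5.

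The CIP/KIP genes lay at different distances from the nearest peak. Cdkn1a encodes p21, the kinase inhibitor best known as a target of p53 after DNA damage, and lies at chr17:29090976-29100727 on the plus strand. Its 5′ end was 230.2 kb from the closest peak of replicate 1 against input, in an exon of Pi16. It was 115.9 kb from the closest IgG-called peak and 40.9 kb from the closest replicate 2 peak, which lay in an intron of Rab44. In replicate 1 against input Cdkn1a was the member farthest from a peak, and 86.5% of all protein-coding genes were nearer to one, whereas against IgG Cdkn1b, Cdkn2c and Cdkn3 were farther. It had 4 peaks within 100 kb in replicate 2 and 0 in both replicate 1 lists, and the 4 had pileups between 6.00 and 6.07, at or close to the lowest value of 6.0 of that list.

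Cdkn1b encodes p27, which restrains CDK2 in resting cells and is removed by SCF-Skp2 at entry into S phase. It lies at chr6:134920401-134925513 on the plus strand. Its closest peaks were 95.8 kb away in replicate 1 against input, in an exon of Ddx47, 121.9 kb away against IgG and 13.6 kb away in replicate 2. The replicate 2 peak began 8506 bp past the end of the gene, in an intron of Lockd, a noncoding RNA gene that lies downstream of Cdkn1b. It had a pileup of 6.05 and a 2.40-fold enrichment. It was absent from both replicate 1 lists, and Cdkn1b was the only member with a peak, in any list, once the window was widened to 10 kb on each side.

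Cdkn1c encodes p57, an inhibitor expressed from the maternal allele in an imprinted domain and known for its part in cell cycle exit during development. It lies at chr7:143458339-143461050 on the minus strand. Its closest peaks were 39.1 kb away in replicate 1 against input, 17.8 kb against IgG and 15.7 kb in replicate 2. The last 2 both lay downstream of the gene between annotated genes, and a gap of 1.8 kb separated them, so they did not overlap. The replicate 1 peak lay on the other side, 823 bp from Slc22a18. The replicate 2 peak had the lowest pileup of its list, 6.0, and a 2.39-fold enrichment, and the IgG-called peak had a pileup of 3.59 and a 2.87-fold enrichment.

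The INK4 genes gave a similar picture. Cdkn2c encodes p18 and lies at chr4:109660876-109667189 on the minus strand, 20.4 Mb from Cdkn2a on the same chromosome. Its closest peaks were 53.3 kb away in replicate 1 against input and 43.6 kb away in replicate 2, at different positions upstream within Faf1, and 182.4 kb away against IgG, in an exon of Rnf11. The Faf1 peaks of replicate 1 and replicate 2 had pileups of 3.12 and 6.0, the lowest value of each list.

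Cdkn2d encodes p19 of the INK4 family, not to be confused with the p19 protein of Cdkn2a, and lies at chr9:21288410-21291407 on the minus strand. The closest peak was the same 46 bp region, 21.4 kb upstream and 445 bp from Ap1m2, in replicate 1 against input and against IgG. In replicate 2 the closest peak was 39.1 kb downstream, 3771 bp from S1pr5, with a pileup of 7.82 and a 3.01-fold enrichment. This was among the strongest peaks around the members, with 97.5% of the replicate 2 list at a lower pileup, and replicate 1 had none at that place in either list. At S1pr5, 46.9 kb downstream of Cdkn2d, an IgG-called peak of replicate 1 (chr9:21244318-21244535) and a replicate 2 peak (chr9:21244384-21244579) overlapped.

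Cdkn3 encodes a phosphatase that removes the activating phosphate from CDK2 and is expressed in dividing cells, and it lies at chr14:46760541-46771669 on the plus strand. Its closest peaks were 45.8 kb upstream in replicate 1 against input, 147.6 kb away against IgG and 49.8 kb downstream in replicate 2, where the peak lay in an exon of Gmfb with a pileup of 6.43.

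The 5′ end of a protein-coding gene was at a median of 55.4 kb from the closest peak in replicate 1 against input (quartiles 18.1 and 132.1 kb), 53.4 kb against IgG (16.9 and 125.7 kb) and 31.4 kb in replicate 2 (11.8 and 66.7 kb). In replicate 1 against input 2 members, Cdkn1a and Cdkn1b, were farther from a peak than that median and 4 were nearer. Against IgG it was 4 farther and 2 nearer, and in replicate 2 it was 4 farther and 2 nearer. Cdkn1c was the only member nearer than the median in all 3 lists, with 40.3%, 25.8% and 30.4% of all genes nearer to a peak than it was. The order of the members by distance was not kept between the lists. Cdkn1b was the nearest to a peak in replicate 2, while in replicate 1 against input only Cdkn1a was farther from one.

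**Figure D2:**
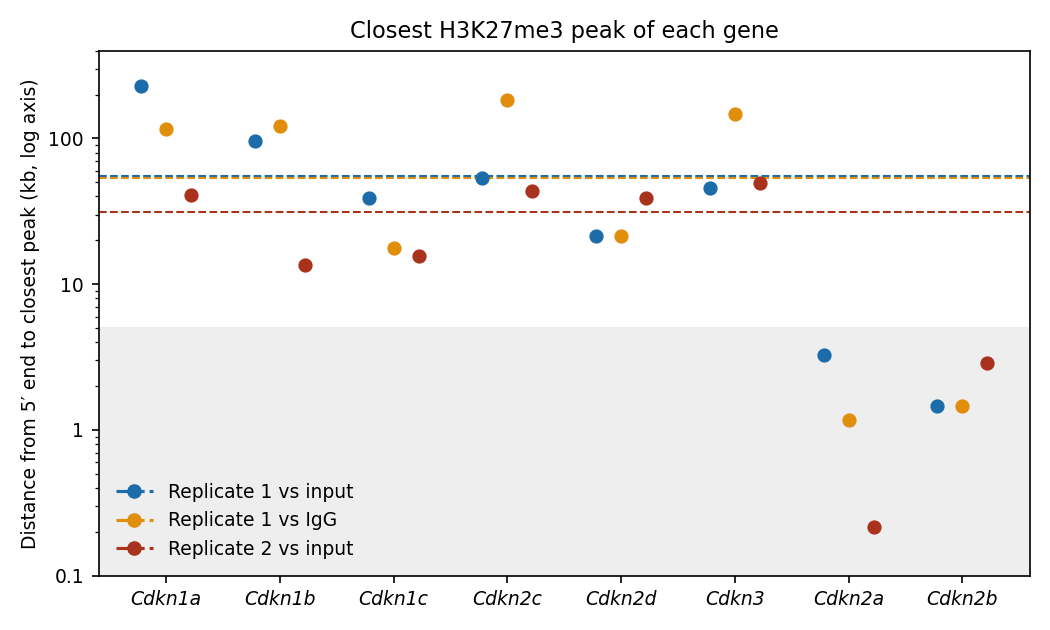
Distance in kb (log axis) from the 5′ end of each gene to the closest peak in each of the 3 lists; dashed lines are the medians over all protein-coding genes and the grey band is the range within 5 kb. The 6 members lie between 13.6 and 230.2 kb on either side of the medians, and Cdkn2a and Cdkn2b lie below 5 kb in every list.

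Wider windows took in peaks at some members, as they did for all genes. With 10 kb on each side, 0 of 6 members had a peak in replicate 1 against input (29.5% of all genes), 0 of 6 against IgG (30.8%), 1 of 6 in replicate 2 (42.2%) and 0 of 6 in both replicates (18.9%). With 20 kb it was 0 of 6 (37.4%), 1 of 6 (39.2%), 2 of 6 (52.7%) and 0 of 6 (25.7%) in the same order. With 50 kb it was 3 of 6 (54.8%), 2 of 6 (56.4%), 6 of 6 (73.6%) and 3 of 6 (45.4%). With 100 kb it was 5 of 6 (71.3%), 2 of 6 (73.1%), 6 of 6 (88.5%) and 5 of 6 (66.9%). In the gene body alone it was 0 of 6 in each, with 19.3%, 20.1%, 28.5% and 12.3% of all genes.

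**Figure D3:**
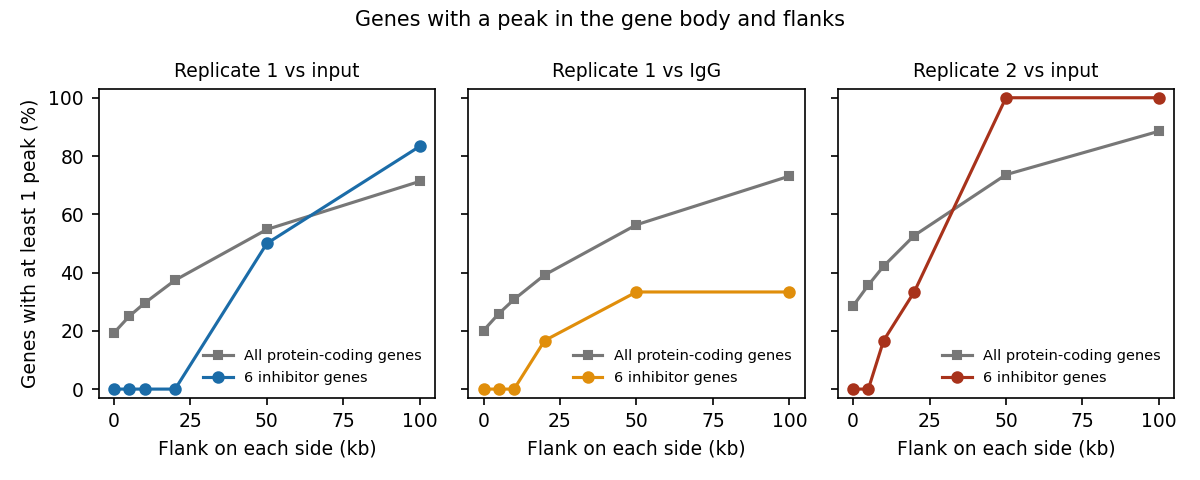
Share of genes with at least 1 peak (y axis, %) against the flank added on each side of the gene body (x axis, kb), for the 6 members and for all 21938 protein-coding genes, with 1 panel per list. The members stay at 0% up to a flank of 20 kb in replicate 1 against input and 5 kb in replicate 2, and reach 100% in replicate 2 at 50 kb.

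Within 100 kb of the 6 start sites there were 10 peaks in replicate 1 against input, 9 when it was called against IgG and 18 in replicate 2. By gene, in that order, Cdkn1c had 3, 5 and 5 peaks, Cdkn2d had 4, 4 and 2, Cdkn3 had 1, 0 and 4, Cdkn2c had 1, 0 and 2, and Cdkn1b had 1, 0 and 1. The median over all genes was 1, 1 and 2. Of the 10 replicate 1 peaks, 0 were overlapped by a replicate 2 peak, and 3 were overlapped by a peak of the same library called against IgG. The share of overlapped peaks over a whole list is not given here. Neither these overlaps nor those given below can therefore be called particular to their places. At the lowest pileup of their list were 6 of the 10, 4 of the 9 and 8 of the 18 peaks. A fold enrichment of 3 or higher was reached by 0, 0 and 2 of them. The strongest was a replicate 2 peak 92.6 kb downstream of Cdkn1c in an intron of Kcnq1 (chr7:143368385-143368470), with a pileup of 8.86 and a 3.40-fold enrichment, and it was not found in replicate 1.

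Cdkn2a and Cdkn2b, measured in the same way, carried peaks in each list. These genes were chosen as comparators with their peaks known, so their values are given as a description. The window of Cdkn2a, whose products act on CDK4 and CDK6 and on Mdm2, held 15 peaks in replicate 1 against input, 16 when it was called against IgG and 13 in replicate 2. Peaks covered 9.42% ± 1.62 (SD, n = 2 replicates against input) of it. The window of Cdkn2b held 4, 5 and 2 peaks, with 3.28% ± 0.0095 (SD, n = 2) covered. No replicate 1 peak against input in that window overlapped a replicate 2 peak. The covered shares of the replicates were alike there, but over different bases. The 2 genes lie 16.4 kb apart, so most of their neighbouring peaks were the same ones. Within 100 kb of Cdkn2a there were 22, 26 and 19 peaks, against at most 5 for any member in any list, and 4 of the 22 replicate 1 peaks were overlapped by replicate 2. The strengths of single peaks overlapped. Pileups ran from 3.12 to 4.29 in replicate 1 against input and from 6.0 to 8.36 in replicate 2 around Cdkn2a, compared with 3.12 to 3.67 and 6.0 to 8.86 around the members.

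The promoters of the members and of the comparators overlapped in CpG content. Over 1 kb on each side of the 5′ end, the observed to expected CpG ratio was 0.78 for Cdkn1c, 0.76 for Cdkn1b, 0.72 for Cdkn2c, 0.60 for Cdkn2d, 0.56 for Cdkn3 and 0.15 for Cdkn1a, against 0.88 for Cdkn2a, 0.67 for Cdkn2b and a median of 0.47 over all promoters. Cdkn1c and Cdkn1b were above 90.3% and 88.0% of all promoters. The low value of Cdkn1a belonged to the most upstream annotated start, and a start 2793 bp further in had a ratio of 0.66, and the closest peak in any list was 38122 bp from it. Of the 8551 promoters with a ratio at or above that of Cdkn3, 4.32% had a peak in replicate 1 against input, 4.98% in replicate 2 and 1.63% in both. Of the 13387 promoters below that ratio the shares were 3.59%, 3.63% and 0.665%. The shares were higher at the CpG-richer promoters, a difference that was not tested, and in both classes most promoters had no peak. The repeat content of the windows also varied. The share of the member windows masked as repeats ran from 9.8% for Cdkn1c to 43.6% for Cdkn1a, with a median of 26.3% over all genes, and unknown bases made up 0% of each.

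**Figure D4:**
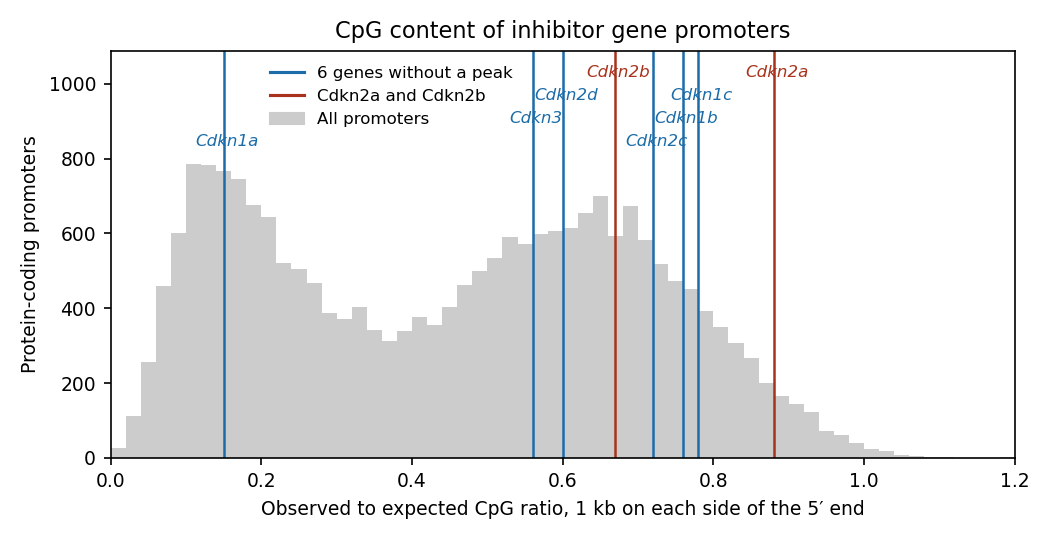
Observed to expected CpG ratio within 1 kb of the 5′ end (x axis) for all 21938 protein-coding promoters (grey bars, number of promoters in steps of 0.02), with the 6 members in blue and Cdkn2a and Cdkn2b in red. Of the members, 5 lie between 0.56 and 0.78, on both sides of Cdkn2b at 0.67, and Cdkn1a lies at 0.15.

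Cdkn1c was examined further because its domain on chromosome 7 is a textbook case of imprinting, in which the noncoding RNA Kcnq1ot1 is transcribed from the paternal allele and Polycomb marks are known to lie on the silent copies of neighbouring genes in placenta and embryo. The alleles cannot be told apart in these libraries. Across the 874.2 kb from Th to Osbpl5, with 5 kb at either end (chr7:142887752-143761985) there were 8 peaks in replicate 1 against input, 14 when it was called against IgG and 15 in replicate 2, which are 9.2, 16.0 and 17.2 per Mb compared with 8.6, 9.4 and 12.6 per Mb over the genome. Of the 14 genes of the domain, 6 had a peak in replicate 1 against input, 7 against IgG, 8 in replicate 2 and 4 in both replicates, beside 25.0%, 25.9%, 35.7% and 15.7% of all protein-coding genes. The windows of the domain genes were not matched in length to those of all genes, and some of them overlap and share peaks. The 4 were Ascl2, Kcnq1, Slc22a18 and Nap1l4, and Cdkn1c was among the 4 genes without a peak in any list. Peaks of the replicates overlapped at 1 place only, in an exon of Ascl2, a transcription factor gene of the trophoblast (replicate 1 at chr7:142967947-142968110, replicate 2 at chr7:142968034-142968274), 491.8 kb from Cdkn1c. Ascl2 had the highest covered share of the 4, 1.63% ± 0.438 (SD, n = 2).

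At the neighbours of Cdkn1c the lists held different peaks. Phlda2, a growth-restricting gene 42.1 kb from Cdkn1c, had a peak 292 bp from the gene in replicate 1 against input and 302 bp from it against IgG, with none in its window in replicate 2. Kcnq1ot1, whose start is 164.5 kb from that of Cdkn1c, had 4 peaks in replicate 2, the nearest 394 bp from its 5′ end. Replicate 1 had 0 peaks in its window against input and 2 when it was called against IgG.

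**Figure D5:**
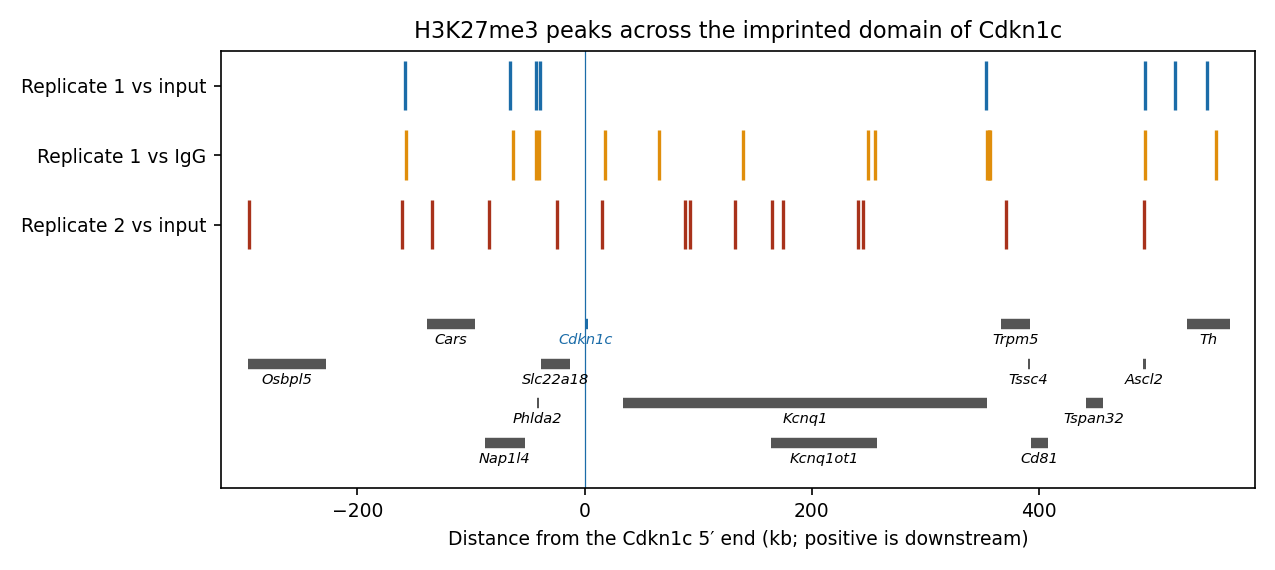
Peaks across the imprinted domain of Cdkn1c (ticks, 1 row per list) by distance in kb from the Cdkn1c 5′ end, above bars for the 14 annotated genes. Ticks of replicate 1 and replicate 2 coincide at Ascl2, and no tick falls at Cdkn1c.

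Genes that the inhibitors act on and through were counted in the same way. A peak in at least 1 list was present at 6 of these 22 genes, beside 49.0% of all protein-coding genes. For windows of 12.7 to 21.1 kb that share was 30.3%. Of 22 genes for cyclins, their kinases, retinoblastoma proteins, E2F factors and Pcna, 3 had a peak in replicate 1 against input, 3 against IgG, 2 in replicate 2 and 1 in both replicates, beside 25.0%, 25.9%, 35.7% and 15.7% of all genes. Among genes with windows of 12.7 to 21.1 kb the shares were 14.6%, 16.0%, 18.5% and 6.57%. The windows of the 22 were not all in that range, and a difference from either share was not tested. The gene with a peak in both was Cdk6, the kinase that pairs with D-type cyclins. Its window held 4, 2 and 2 peaks, with 0.186% ± 0.122 covered (SD, n = 2), and its body of 189524 bp alone held 3, 1 and 2. No peak lay at the promoter of any of the 22 in any list, where 8.56% of all protein-coding genes had one in at least 1 list. Of 18 genes known to regulate the inhibitors, 3 had a peak in replicate 1 against input, 4 against IgG, 7 in replicate 2 and 3 in both, beside the same shares of all genes, 25.0%, 25.9%, 35.7% and 15.7%. The count in both lay near the share of all genes. The 3 were Smad4, the common mediator of TGFβ and BMP signals (0.586% ± 0.481 covered), Trp73 of the p53 family (0.384% ± 0.180) and Trp63 of the same family, a marker of epithelium (0.125% ± 0.0486, SD, n = 2 for each). The Trp73 promoter had a peak in replicate 1 against input and against IgG and none in replicate 2. Cdk6, Smad4, Trp73 and Trp63 have long bodies, from 64772 bp for Smad4 to 208340 bp for Trp63, and a long window has more room for a peak. A count in both replicates required a peak of each in the window, not an overlap between them.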

How the data were processed

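H3K27me3 was measured by ChIP-seq in molar mesenchyme, with 2 H3K27me3, 2 input and 1 IgG libraries grouped by the authors' sample descriptions. The authors aligned reads to GRCm38 with BWA, kept uniquely mapped reads, sorted them with SAMtools and called broad peaks with MACS2 (2.1.1) at a p-value of 0.005, without pooling. The deposited pileup is a signal (mean overlapping tags, larger library scaled to the smaller), the deposited fold enrichment is a ratio to the control, and each deposited p-value or q-value is on a −log10 scale. Depth was read from the file headers, and the small number of tags behind a peak limits the precision of its position.

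Peaks were overlapped, by at least 1 base, with GENCODE M21 gene windows in Python 3.11.15 with pandas 2.3.3 and numpy 2.4.6, by code tested on simulated data. Sequences came from GRCm38.p6, and the stretch before 1 member's 5′ end is not reported here. All shares are descriptions with no test. Named genes were all members, Cdkn2a and Cdkn2b, at most 5 genes per other list with a peak in both replicates and the highest covered share, and the protein-coding genes nearest to each member's closest peak. Pi16, Rnf11, Lockd, Phlda2, Kcnq1ot1 and the S1pr5 overlap were named after their values were seen. Of the marker lists only counts are given. The members and lists were chosen with earlier results of these data known.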

Additional observations from a re-analysis of the deposited data

How the results depend on the processing

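The count of members with a peak in both replicates was 0 under each of these settings in turn: replicate 1 called against IgG, a fold enrichment of 3 or higher, 50% of the peak inside the window, replicate 2 reduced to as many peaks as replicate 1, the gene body alone, 10 kb on each side, and each replicate left out in turn (range 0 to 0). Of these settings only 10 kb on each side could have changed the count. The others had to give 0, since no list held a peak in a member's gene body with 5 kb on each side. With flanks of 20, 50 and 100 kb, added after seeing the data, the count was 0, 3 and 5. The count of promoter peaks was 0 under every alternative, including 5 kb around the start site and 1 kb around any annotated start. The covered share could likewise move only with 10 kb on each side, and it did so in 1 case, Cdkn1b, to 0.4221%.

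At a fold enrichment of 3 or higher, which kept 2040 peaks of replicate 1 and 522 of replicate 2, the partner, regulator and Kcnq1 domain genes with a peak in both replicates each fell to 0, from 1, 3 and 4. Without replicate 1 these counts were 2, 7 and 8, and without replicate 2 they were 3, 3 and 6, since a peak in the other replicate was no longer required. A q-value of 0.05 or lower could not be used, since 0 peaks of replicate 1 and 4 of replicate 2 reached it. No paired analysis was possible because no result comes from a test. Depth, tag length and replicate cannot be told apart, and marks too weak or too broad for a peak of 4 to 6 tags are not seen.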
